A study of Punica granatum with 4 samples.

Results

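Spraying drought-stressed pomegranate leaves with 30 µM abscisic acid (ABA) was compared with spraying them with water, gene by gene and by expression level. Members of the comparison were the genes with at least 1 CPM (the count scaled to the library total, in counts per 1000000) in the 30 µM library or in the water library (0 µM). They numbered 18896 of the 27893 features counted. Of these, 18022 reached 1 CPM in both libraries, 351 in the 30 µM library alone and 523 in the water library alone. Members took 99.9% of the counts of each library. The features left out numbered 8997, of which 5075 had no count in either library.

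All plants were Punica granatum of the strain labelled Hongmanao, genotype wt, aged 180 days. They were raised from rooted cuttings in pots with soil water held at 30% to 35% of field capacity, so both groups were under drought and there was no well-watered group among the samples used here. The treated group received 30 µM ABA daily and the control group the same volume of distilled water (0 µM). RNA came from leaves, and each dose was represented by 1 library, with 60 and 90 µM ABA as the other doses of the series. Whether a library held 1 plant or a pool is not stated in the labels.

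ABA is the hormone that plants accumulate in drying tissue. It is bound by receptors of the PYR/PYL/RCAR family, which then inhibit a group of protein phosphatases and so release SnRK2 kinases, and these act on ion channels of guard cells to close stomata and on transcription factors to switch on protective genes. These components could not be followed by name here, because the gene table available for pomegranate pairs its identifiers (LOC numbers) with a feature class and an order along chromosomes but with no product name. The leaf label could not be checked against marker genes for the same reason. Genes are therefore described by level, class, neighbours and counts, and no role is given for them.

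The libraries held 22118468 counts at 0 µM and 24052618 at 30 µM, so that 3 counts corresponded to 0.136 and 0.125 CPM. Between 22044 and 22257 features had a count in each of the 4 libraries. With 1 library per dose there is no spread within a dose and no test. Each ratio of 30 µM over 0 µM instead carries an exact 95% conditional binomial (Clopper-Pearson) interval, which covers counting error only. A gene was called higher when that interval lay wholly above 2 and lower when it lay wholly below 0.5. In bulk leaf RNA, fewer cells of a type and less RNA per cell cannot be told apart.

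Most genes differed by less than 1.5-fold between the libraries with and without 30 µM ABA. The median log2 fold over the 18896 genes was -0.0025, and the log2 folds of 14383 genes (76.1%) lay within 0.5 of 0. The 5th and 95th percentiles were -0.92 and 0.80, and the 1st and 99th were -2.00 and 1.74. For 11776 genes (62.3%) the whole counting interval lay within 1.5-fold of no change. That share was 1.57% at a mean of 1 to 3 CPM, 34.9% at 3 to 10 CPM and 84.4% at 30 to 100 CPM. Many small differences were still larger than counting error. The interval lay wholly above 1 for 5425 genes and wholly below 1 for 5537, and it included 1 for 7934. At the other end, 310 genes were called higher (1.64% of those kept) and 379 were called lower (2.01%), together 689 or 3.65%. A further 806 genes had a point ratio past 2-fold whose interval reached inside 2-fold. The gene nearest the rule on the higher side was LOC116192731, with 16 counts at 0 µM and 60 at 30 µM (interval 2.00 to 6.55), and LOC116207254, with 51 and 150 counts (2.00 to 3.87, the lower end just under 2), fell just outside. On the lower side LOC116210415, with 168 and 67 counts, had an interval that ended at 0.4998, just inside the rule, and LOC116214726, with 693 and 323 counts, had one that ended at 0.50002, just outside.

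**Figure D1:**
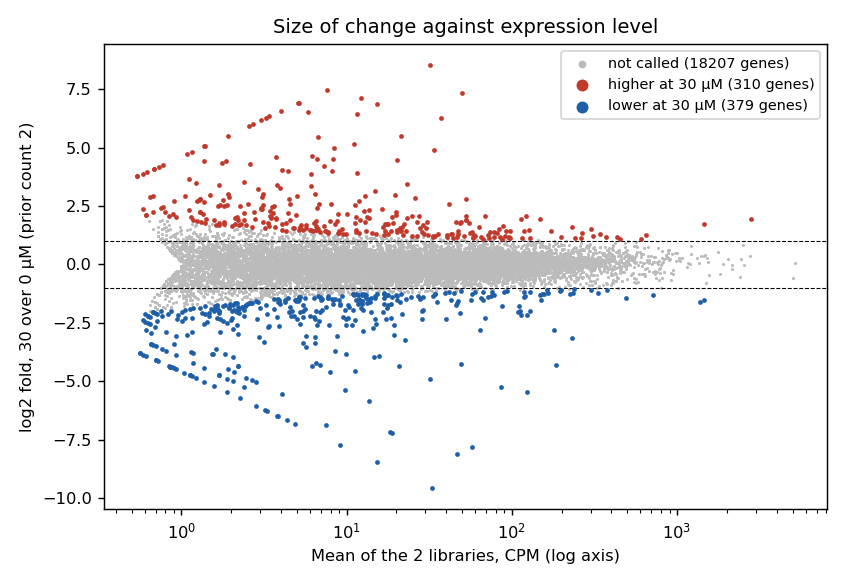
Each point is 1 of the 18896 genes, placed by the mean CPM of the 0 and 30 µM libraries (log axis) and by the log2 fold of 30 over 0 µM with a prior count of 2. Red marks the 310 genes called higher and blue the 379 called lower, and the dashed lines mark 2-fold. The cloud narrows from low to middle levels. The straight outer edges at low levels are genes with few or no counts in 1 library, whose plotted fold depends on the prior count.

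Under the filter of 1 CPM in either library, the share of genes called was highest at the 2 ends of the expression range. Bands were set by the mean CPM of the 2 libraries. Of the 311 genes under 1 CPM, 66 were called, 21 higher and 45 lower (21.2%). A gene can enter that band only by having 1 CPM in one library and less in the other, so its members differ by construction. Of the 1853 genes at 1 to 3 CPM, 61 were higher and 99 lower (8.63%). Of the 3349 genes at 3 to 10 CPM, 90 were higher and 91 lower (5.40%). The share then fell to 2.61% of 5250 genes at 10 to 30 CPM and 1.57% of 5727 genes at 30 to 100 CPM. It was 1.92% of 1980 genes at 100 to 300 CPM, 3.33% of 390 genes at 300 to 1000 CPM and 11.1% of the 36 genes at 1000 CPM and above, which is 4 genes.

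The shares in the low bands depended on the filter. When 1 CPM was required in both libraries, the share at 1 to 3 CPM was 1.11% (15 of 1353 genes), because a gene with a mean under 3 CPM and no library under 1 CPM cannot differ by more than about 5-fold. At 3 to 10 CPM the share was still 4.06% (134 of 3302 genes). From 100 CPM upward this filter removed no gene, so the shares there could not change. The level was also taken from the 60 and 90 µM libraries, which enter the ratio only through the scaling. The shares were then 19.9% under 1 CPM, 7.43% at 1 to 3 CPM, 1.49% at 30 to 100 CPM and 12.0% of 50 genes at 1000 CPM and above. The genes were still those with 1 CPM in either compared library, so this setting cannot remove the effect of the filter on the low bands.

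Precision moved the other way. At the median summed count of each band, the smallest ratio the rule could call was 5.16 under 1 CPM (33 counts against 6) and 3.64 at 1 to 3 CPM (66 against 17). It was 2.64 at 3 to 10 CPM, 2.34 at 10 to 30 CPM and 2.03 at 1000 CPM and above. A 3-fold difference could thus be called at the median summed count of every band from 3 CPM upward, but of none below. Genes near the lower edge of a band need a larger ratio than its median gene. LOC116207254, at a mean of 4.27 CPM, had a ratio of 2.76 and was not called. For genes under 3 CPM, a difference that was not called was not detectable at this depth unless it was large.

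**Figure D2:**
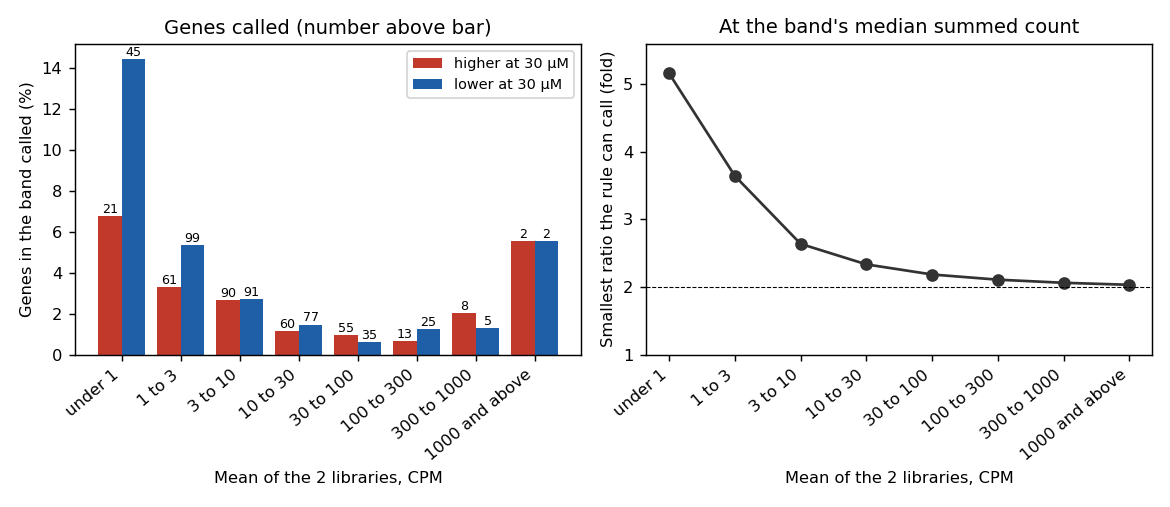
The left panel gives, for each band of mean CPM, the percentage of genes called higher (red) and lower (blue) at 30 µM, with the number of genes above each bar. The right panel gives the smallest ratio that the rule can call at the median summed count of the band, from 5.16 under 1 CPM to 2.03 at 1000 CPM and above, with a dashed line at 2.

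Under the filter of 1 CPM in either library, differences between the libraries shrank with level up to about 300 CPM, and counting error shrank faster. The SD of the log2 folds over genes was 1.71 under 1 CPM, 1.10 at 1 to 3 CPM, 0.87 at 3 to 10 CPM, 0.56 at 10 to 30 CPM and 0.46 at 30 to 100 CPM. It was 0.42 at 100 to 300 CPM, and 0.45 and 0.67 in the 2 bands above. When 1 CPM was required in both libraries, the SD was 0.58 at 1 to 3 CPM and 0.63 at 3 to 10 CPM. It was then 0.48 at 10 to 30 CPM and 0.39 at 30 to 100 CPM. That filter limits folds under 3 CPM to about 5, so it lowers the SD at 1 to 3 CPM by construction. The fall in spread below 10 CPM was thus seen only under the filter of 1 CPM in either library. Over all members, the median half-width of the counting interval fell with level without a turn. It went from 1.09 under 1 CPM to 0.12 at 30 to 100 CPM and 0.022 at 1000 CPM and above. The median size of the log2 fold was 1.13 under 1 CPM, 0.33 at 3 to 10 CPM (beside a half-width of 0.36), 0.17 at 30 to 100 CPM and 0.32 at 1000 CPM and above. In the highest band the typical difference between the libraries was thus many times the counting error, and the intervals of 34 of its 36 genes left out a ratio of 1. That spread can hold differences between plants, leaves or library preparations as well as differences between sprays, and with 1 library per dose these cannot be told apart.

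**Figure D3:**
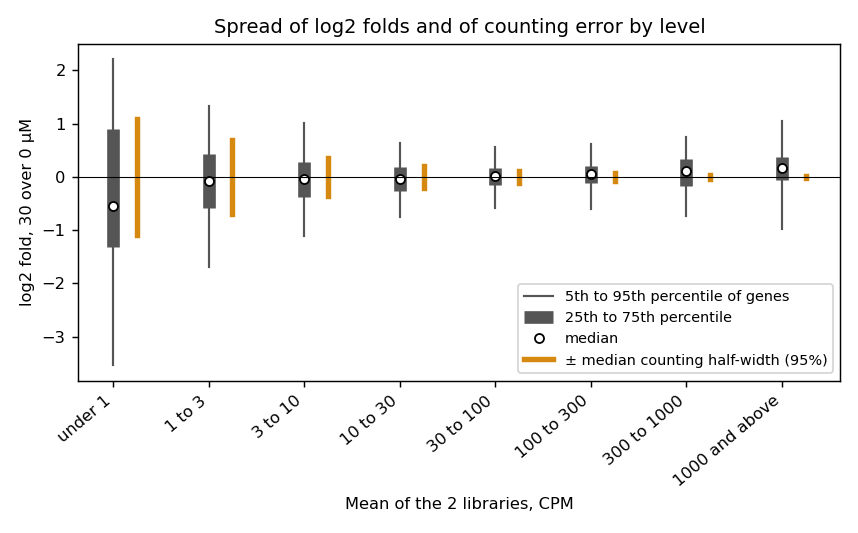
For each band of mean CPM, the thin line spans the 5th to 95th percentile of the log2 folds of its genes, the thick bar the 25th to 75th percentile and the open circle the median. The orange bar beside it spans plus and minus the median half-width of the 95% counting interval, from 1.09 under 1 CPM to 0.022 at 1000 CPM and above, where it is much shorter than the spread of the genes.

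The median fold also shifted with level, from -0.56 under 1 CPM, where the filter shapes it, and -0.08 at 1 to 3 CPM to 0.05 at 100 to 300 CPM, 0.12 at 300 to 1000 CPM and 0.17 at 1000 CPM and above. With 1 CPM required in both libraries, the medians were -0.024 at 1 to 3 CPM, -0.043 at 3 to 10 CPM and -0.031 at 10 to 30 CPM. The value at 1 to 3 CPM thus depended on the filter as well. From 300 CPM upward the band medians lay slightly above the water level on this scale. The scaling itself moves such medians: over all members the median was -0.0025, but -0.032 with library totals. The 100 most abundant genes took 11.3% of counts at 0 µM and 11.7% at 30 µM. Of those 100 genes, 3 were higher, 3 lower and 79 had a counting interval wholly within 1.5-fold of no change, with ratios between 0.332 and 3.82.

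Differences of 16-fold or more were few from 100 CPM upward, where few of the members lie. Genes with 0 counts in a library were given the lower bound set by a floor of 3 counts in that library. Of the 310 higher genes, 163 differed by less than 4-fold, 73 by 4- to 8-fold, 32 by 8- to 16-fold and 42 by 16-fold or more, with a median of 3.85-fold. Of the 379 lower genes, 170 differed by less than 4-fold, 101 by 4- to 8-fold, 40 by 8- to 16-fold and 68 by 16-fold or more, with a median of 4.32-fold. Medians by band are set in part by the rule, which needs a larger ratio at low levels, and are not compared. From 100 CPM upward, 2 genes differed by 16-fold or more, both lower. Of the 18896 members, 1980 were at 100 to 300 CPM, 390 at 300 to 1000 CPM and 36 at 1000 CPM and above. At 1 to 3 CPM, 13 higher and 31 lower genes differed by 16-fold or more, and under 1 CPM 8 lower genes did. Such genes were members only through the library in which they were high.

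At 1000 CPM and above, 4 protein-coding genes were called. LOC116208007 had 26256 counts at 0 µM and 106860 at 30 µM, or 1187 and 4443 CPM (ratio 3.82, interval 3.77 to 3.87). It was the third most abundant gene of the comparison. LOC116211316 had 14997 and 53805 counts, or 678 and 2237 CPM (ratio 3.37, interval 3.31 to 3.43). Both were above their water level in the remaining ABA libraries too, with 4416 and 2572 CPM for LOC116208007 and 1220 and 1497 CPM for LOC116211316 at 60 and 90 µM.

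The 2 lower genes in that band were LOC116204948 and LOC116200037. LOC116204948 had 47802 counts at 0 µM and 17864 at 30 µM, or 2161 and 743 CPM, 2.85-fold lower (interval 2.80 to 2.90). LOC116200037 had 45625 and 16155 counts, or 2063 and 672 CPM, 3.01-fold lower (interval 2.95 to 3.06). At 60 and 90 µM LOC116200037 stood at 1477 and 1580 CPM and LOC116204948 at 1671 and 1075 CPM, so for both the 30 µM library was the lowest of the 4. The remaining 2 of the 3 most abundant genes were not called: LOC116215619 had 5080 and 5207 CPM (ratio 1.05, interval 1.04 to 1.05) and LOC116204098 had 6149 and 3978 CPM (ratio 0.661, interval 0.655 to 0.666).

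At 300 to 1000 CPM, 8 genes were higher and 5 lower, all by less than 3-fold. LOC116197481 was farthest past the rule among the higher ones, with 3484 and 10654 counts, or 158 and 443 CPM (ratio 2.87, interval 2.76 to 2.98). LOC116202743 had 4407 and 11597 counts, or 199 and 482 CPM (ratio 2.47, interval 2.39 to 2.56). Both had similar values at 60 µM (432 and 458 CPM) and stood closer to the water level at 90 µM (199 and 202 CPM). LOC116203877 was 2.70-fold lower (interval 2.62 to 2.78), with 15889 and 6272 counts, or 718 and 261 CPM, and 282 and 279 CPM at 60 and 90 µM. LOC116194869 was 2.47-fold lower (interval 2.41 to 2.53), with 22618 and 9762 counts, and stood at 166 and 572 CPM at 60 and 90 µM against 1023 CPM in water.

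At 100 to 300 CPM, 13 genes were higher and 25 lower. LOC116202461 had 1046 counts at 0 µM and 4740 at 30 µM (ratio 4.25, interval 3.98 to 4.55). LOC116193463 had 1369 and 5660 counts (ratio 3.88, interval 3.66 to 4.12), with 1223 and 5271 at 60 and 90 µM. The lower genes of this band reached larger folds. LOC116199227 had 5360 and 127 counts, or 242 and 5.28 CPM, 45.0-fold lower (interval 37.7 to 54.0). LOC116214897 had 7758 and 421 counts, or 351 and 17.5 CPM, 19.6-fold lower (interval 17.8 to 21.7). In both, the 60 µM library was high again, with 3286 and 11245 counts, and the 90 µM library low, with 97 and 565 counts.

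At 30 to 100 CPM, 55 genes were higher and 35 lower. LOC116190225 had 2 counts at 0 µM and 1539 at 30 µM, or 0.0904 and 64.0 CPM (ratio 722, interval 200 to 5970). Its 2184 and 1972 counts at 60 and 90 µM set the water library apart from the other 3. LOC116211609 had 12 and 2373 counts (ratio 186, interval 106 to 360), and 388 and 2109 at 60 and 90 µM. LOC116210933 had 1452 counts at 0 µM and 0 at 30 µM, at least 515-fold lower against the floor of 3 counts. Here and below, such a bound leaves out the counting error of the library that has reads, and the exact interval begins lower, at 419-fold for this gene. LOC116209956 had 2050 and 6 counts, 364-fold lower (interval 167 to 993).

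At 10 to 30 CPM, 60 genes were higher and 77 lower. LOC116213047 had 2 counts at 0 µM and 582 at 30 µM (ratio 273, interval 75.3 to 2261), but 1 at 60 µM and 633 at 90 µM. LOC116211610 had 4 and 730 counts (ratio 171, interval 66.6 to 630.5), and 74 and 400 at 60 and 90 µM. LOC116189976 had 673 and 0 counts, at least 238-fold lower. LOC116202306 had 827 and 4 counts, 220-fold lower (interval 85.7 to 810). Like LOC116210933 and LOC116209956, these lower genes were high at 60 µM (1133 and 692 counts) and near 0 at 90 µM (0 and 1).

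At 3 to 10 CPM the genes farthest from the rule were LOC116207036 and LOC116187147 on the higher side. LOC116207036 had 0 counts at 0 µM and 366 at 30 µM, at least 114-fold higher, and 465 and 533 at 60 and 90 µM. LOC116187147 had 0 and 247 counts, at least 77-fold higher, but 4 at 60 µM and 306 at 90 µM. On the lower side, LOC116196374 had 406 and 0 counts, at least 144-fold lower, and LOC116215005 had 329 and 1, 350-fold lower (interval 62.5 to 13884). Under 3 CPM, LOC116206700, a lncRNA gene, went from 0 to 131 counts and LOC116190401 from 0 to 123, at least 40-fold and 38-fold higher. LOC116189785 went from 125 to 0 counts and LOC116196376 from 100 to 0, at least 44-fold and 35-fold lower.

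**Figure D4:**
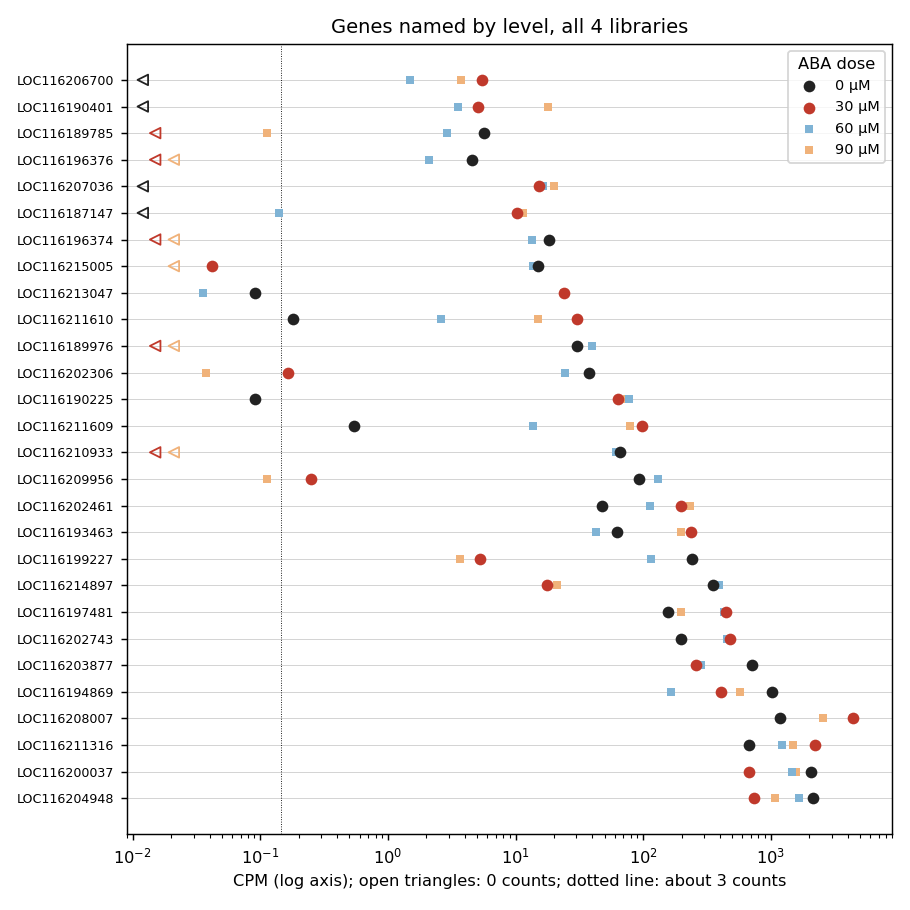
Each row is a gene named by its level, from under 3 CPM at the top to 1000 CPM and above at the bottom, with its CPM in the 4 libraries (log axis). Circles are the compared libraries, black for 0 µM and red for 30 µM, and small squares are 60 µM (blue) and 90 µM (orange). Open triangles at the left edge stand for 0 counts, and the dotted line marks about 3 counts. Between 0 and 30 µM, differences of 100-fold and more appear in rows below 100 CPM, while the rows from 300 CPM upward differ by less than 4-fold.

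A set of 20 genes had 0 counts in one of the compared libraries and at least 100 in the other. Of these, 9 were silent (0 counts at this depth) in water and had 123 to 366 counts at 30 µM, and 11 were silent at 30 µM and had 100 to 1452 counts in water. All 11 genes silent at 30 µM had at most 3 counts at 90 µM as well, while at 60 µM they had between 29 and 1740. Besides those described above, they were LOC116196892, LOC116207941, LOC116215006, LOC116214401, LOC116212677 and LOC116189788. LOC116212677, a lncRNA gene, had 141, 0, 138 and 0 counts at 0, 30, 60 and 90 µM. The 9 genes silent in water had 52 to 533 counts at 90 µM. At 60 µM, LOC116187147 had 4 counts and LOC116210303 had 0, and the rest, among them LOC116206699, LOC116188690, LOC116189742 and LOC116190306, had more than 10. Over all members, 22 genes had no count in water and 32 none at 30 µM.

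The pair of 90 against 60 µM shares no library with 30 against 0 µM, so the called genes were looked up in it under the same rule. Over all 18896 genes, 3.25% were higher and 3.84% lower at 90 than at 60 µM. Of the 310 genes higher at 30 µM, 90 (29.0%) were higher and 22 (7.10%) lower at 90 than at 60 µM. Of the 379 genes lower at 30 µM, 131 (34.6%) were lower and 20 (5.28%) higher. Among the 18207 genes not called at 30 µM the shares were 2.77% higher and 3.15% lower. Under 3 CPM, 25.6% of higher genes were again higher and 38.9% of lower genes again lower, against 3.51% and 6.30% of genes not called. At 300 to 1000 CPM, 1 of 8 higher genes was again higher, against 14.1% of genes not called, and 0 of 5 lower genes again lower. At 1000 CPM and above it was 0 of 2 in each direction, with 34.4% of genes not called higher at 90 than at 60 µM.

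The same-direction shares over all levels grew with the size of the difference at 30 µM. Among genes higher by less than 4-fold, 37 of 163 (22.7%) were also higher at 90 than at 60 µM. Among those higher by 16-fold or more it was 21 of 42. Among genes lower by less than 4-fold, 28 of 170 (16.5%) were also lower at 90 than at 60 µM, and among those lower by 16-fold or more, 51 of 68. Thus most of the genes lower by 16-fold or more, and as many as not of those higher by that much, were past the 2-fold rule in the same direction between 2 libraries that both received ABA. In the opposite direction there were 2 of the lower and 4 of the higher genes. Whether these genes differ by dose, by plant or by another property that the 0 and 60 µM libraries share was not tested.

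**Figure D5:**
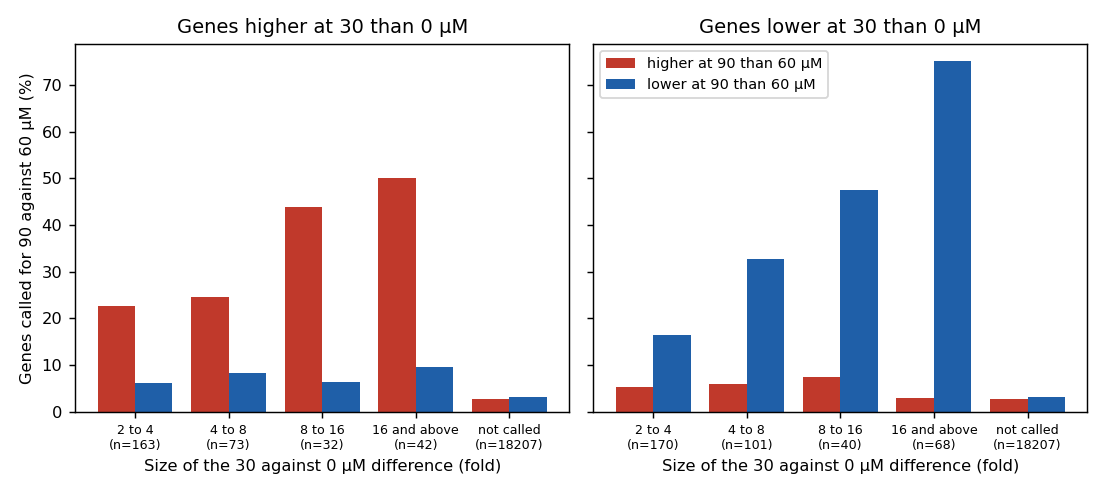
Bars give the percentage of genes called higher (red) or lower (blue) at 90 than at 60 µM, for genes higher at 30 µM than in water (left panel) and lower (right panel), grouped by the size of that difference. The group at the right of each panel holds the 18207 genes not called at 30 µM. Same-direction shares run from 22.7% to 21 of 42 genes on the left and from 16.5% to 51 of 68 genes on the right.

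In terms of the transcript pool, the called genes were a small part. The 310 higher genes took 0.763% of the counts in water and 2.22% at 30 µM, a gain of 14553 CPM. The 379 lower genes took 1.97% and 0.624%, so that their summed level fell by 13439 CPM. A few abundant genes made up much of this. The 5 higher genes with the largest gains, LOC116208007, LOC116211316, LOC116198171, LOC116208309 and LOC116188503, held 41.8% of the gain, with LOC116208007 alone adding 3256 CPM. The 5 lower genes with the largest losses, LOC116204948, LOC116200037, LOC116194869, LOC116203877 and LOC116200065, held 31.7% of the loss. The median level of the higher genes was 7.58 CPM and that of the lower genes 5.63 CPM, against 23.4 CPM over all members.

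By class, 18244 members were protein-coding, 627 lncRNA, 11 rRNA, 11 snoRNA and 3 snRNA genes. Long noncoding RNAs (lncRNAs) are transcripts without a long reading frame, rRNA is the RNA of ribosomes, and snoRNAs and snRNAs act in rRNA modification and in splicing. Called genes were 293 higher and 337 lower protein-coding genes (1.61% and 1.85% of the class) and 17 higher and 42 lower lncRNA genes (2.71% and 6.70%). None of the 25 rRNA, snoRNA and snRNA features was called.

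Most lncRNA genes were scarce, with a median level of 2.99 CPM against 24.8 CPM for protein-coding genes, so the classes were set side by side within bands. Under 3 CPM, 32 of 314 lncRNA genes (10.2%) and 112 of 1837 protein-coding genes (6.10%) were lower, and 3.50% and 3.87% were higher. At 3 to 10 CPM, 9 of 208 lncRNA genes (4.33%) and 82 of 3138 protein-coding genes (2.61%) were lower, and 1.92% and 2.74% were higher. At 10 to 30 CPM, 1 of 82 lncRNA genes (1.22%) and 76 of 5164 protein-coding genes (1.47%) were lower, and 2 (2.44%) and 58 (1.12%) were higher. Of the 23 lncRNA genes at 30 CPM and above none was called. With 1 CPM required in both libraries, the lower shares under 3 CPM were 1.04% (2 of 192) and 0.694% (8 of 1153). That filter limits folds under 3 CPM to about 5, so few genes of either class could be called. It cannot show what the difference between the classes at that level rests on. The median log2 folds under 3 CPM were then -0.13 for lncRNA and -0.006 for protein-coding genes. Under the main filter, the median log2 fold of lncRNA genes was -0.24 under 3 CPM, -0.15 at 3 to 10 CPM and -0.020 at 10 to 30 CPM. For protein-coding genes these medians were -0.086, -0.036 and -0.031.

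LOC116215962 was among the lncRNA genes farthest past the rule, with 177 counts at 0 µM and 2 at 30 µM, and 460 and 1 at 60 and 90 µM. LOC116214669 had 70, 0, 93 and 0 counts in the same order. LOC116190335 and LOC116190334 went the other way, from 0 counts each in water to 67 and 66 at 30 µM. None of the 7 lncRNA genes at 100 CPM and above was called, and their ratios ran from 0.640 for LOC116205075 (4045 and 2759 counts, interval 0.610 to 0.672) to 1.60 for LOC116198805 (3468 and 5896 counts, interval 1.53 to 1.66). The lncRNA genes named in this paragraph were picked after their values were seen. The counting is not stated to use strand, so reads of a lncRNA gene and of a gene on the opposite strand cannot be told apart.

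Most rRNA features stood below their water level, and none had an interval wholly past 2-fold. Of 11 features, 10 had a lower scaled count at 30 µM, and the median log2 fold was -0.56. LOC116190112, the farthest of the 4 abundant ones, had 10727 and 6359 counts (ratio 0.556, interval 0.539 to 0.574), and LOC116190074, the nearest, had 23123 and 19355 (ratio 0.786, interval 0.771 to 0.801). All 4 were also below their water level at 60 and 90 µM. LOC116190112 stood at 485 CPM in water and at 333 and 185 CPM at 60 and 90 µM. For LOC116190074 these values were 1045, 768 and 493 CPM. The scarce LOC116190195 had 59 and 29 counts (ratio 0.461, interval 0.285 to 0.731), and LOC116190111 had 28 and 30 (ratio 1.01). Copies of rRNA genes are nearly the same in sequence and reads can match several of them, so the features are not separate measurements. Among the snoRNA genes LOC116206512 had 201 and 301 counts (ratio 1.41, interval 1.17 to 1.69) and LOC116198344 had 348 and 322 (ratio 0.869, interval 0.744 to 1.01).

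Some called genes lay directly beside another gene called in the same direction. Neighbours were taken from the order of the 25484 counted features that the gene table places on chromosomes, 18719 of them members. Of 284 placed higher genes, 30 (10.6%) had a higher gene directly beside them and 5 (1.76%) a lower one. Of 346 placed lower genes, 32 (9.25%) had a lower gene beside them and 5 (1.45%) a higher one. Among 18089 placed genes that were not called, 1.89% had a higher and 2.37% a lower neighbour. When neighbours were counted among members alone, skipping the features below 1 CPM, these shares were 20.8% for higher beside higher genes and 13.3% for lower beside lower genes, against 2.65% and 3.45% for genes that were not called. In all there were 30 runs of adjacent genes called in the same direction, 14 of higher and 16 of lower genes, which together held 62 genes. Of these, 29 were pairs and 1 was a run of 4, and 5 runs held a lncRNA gene.

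The run of 4 held the protein-coding genes LOC116195060, LOC116198171, LOC116193463 and LOC116193503. LOC116195060 had 950 counts at 0 µM and 3193 at 30 µM, LOC116198171 had 8624 and 21739, and LOC116193503 had 613 and 1453. With library totals as the scaling, the interval of LOC116193503 began at 1.98 and it was not called. All 4 were low again at 60 µM (905, 6144, 1223 and 444 counts) and high at 90 µM (2821, 20027, 5271 and 1343). In 11 of the 30 runs every gene was also called that way at 90 against 60 µM, and in 14 no gene was.

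Among the lower pairs, LOC116200037 lay beside LOC116200065, which had 9257 and 1110 counts at 0 and 30 µM and 23618 and 24739 at 60 and 90 µM, so that this pair was low in the 30 µM library alone. LOC116199227 lay beside LOC116199229 (2780 and 1297 counts), and LOC116215005 beside LOC116214115 (74 and 1). The genes LOC116206700 and LOC116206699, both silent in water, were neighbours, with 0 and 131 and 0 and 164 counts. LOC116211609 and LOC116211610 lay 3 places apart, and LOC116196374 and LOC116196376 lay 2 places apart. Neighbouring genes can be copies of each other or can overlap, and reads that match more than 1 of them may have been shared, split or dropped. No sequence was at hand to compare them.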

How the data were processed

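The authors deposited unnormalized read counts, 1 whole number per gene and library. The submitters' processing notes name HISAT2 for alignment work, featureCounts for counting reads and FastQC for read quality, as these tools are generally used. Their versions and settings (strand, reads that map to several places) and the genome build were not given in the sources used here. Of 27893 identifiers, 27509 matched a symbol of RefSeq's gene table for assembly ASM765513v2, all members among them. The table served for class and order of genes. No coordinates are printed, since the build behind the counts is unknown.

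Members were chosen on CPM from library totals. Ratios were scaled with edgeR 4.0.16 TMM factors over all 4 libraries (1.03 at 0 µM and 1.01 at 30 µM). CPM values are not TMM-scaled. Intervals came from scipy 1.17.1, and log2 folds used a prior count of 2. Amplified reads are not independent molecules, so intervals and the floor of 3 counts cover counting error alone. The interval and the rule were tried on simulated counts that held counting error alone and a known scaling. That simulation cannot show how the rule does with spread between plants or preparations. No test between doses was made, since 1 library per dose leaves no spread.

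Named genes were, in each of 7 bands of level and each direction, the 2 called genes whose interval bound lay farthest past the rule, plus the 3 most abundant members, genes with 0 counts against at least 100, and neighbours of these. Others, such as genes that carried the gain and loss of CPM, the lncRNA, rRNA and snoRNA examples and the genes nearest the rule, were named after their values were seen. The bands, rules and members were chosen with earlier results of these data known. The 32 planned lists by protein motif, the search for similar proteins and the search of promoters needed sequences that were not used here, and 0 list members were found. Alternatives covered scaling (library totals, TMM over the 2 libraries, DESeq2 1.42.0 size factors), filters, the fold and interval of the rule, the prior count and the source of the level.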

Additional observations from a re-analysis of the deposited data

How the results depend on the processing

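Counts of called genes depended on the rule and the filter more than on the scaling. Higher genes numbered 823 with a 1.5-fold rule, 80 with a 4-fold rule and 198 with 1 CPM required in both libraries, against 310. Lower genes numbered 1012, 126 and 217 under the same settings, and 239 with 5 CPM required in either library, against 379. Library totals, TMM over the 2 libraries and DESeq2 size factors gave 297 to 318 higher and 364 to 398 lower genes, and 99% intervals gave 254 and 301. With 1 CPM in both libraries, the share called at 1 to 3 CPM was 1.11%, and the lower shares under 3 CPM were 1.04% of lncRNA and 0.694% of protein-coding genes, since that filter removes the genes that fell below it. The median log2 fold over members was -0.032 with library totals and 0.013 with DESeq2 size factors, and that of protein-coding genes was -0.030 with library totals. When neighbours were counted among members alone, 20.8% of higher and 13.3% of lower genes lay beside a gene called in the same direction. The settings for neighbours, for 90 against 60 µM, for the classes under 3 CPM and for the bands with 1 CPM in both libraries were chosen after seeing the data. Of 81 alternatives for these summaries, 67 stayed within 1.5 times the main value or inside the interval of the median. The 41 genes named by level, abundance or 0 counts kept their call under the 3 other scalings. Of the 62 genes in runs of neighbours, 2 lost theirs, LOC116193503 with library totals (interval from 1.98) and LOC116195451 with DESeq2 size factors (interval up to 0.505), and each of the 4 genes nearest the rule changed sides under at least 1 scaling. No paired analysis was possible because each dose has 1 library. No replicate could be left out for the same reason. The alternative for gene lists was not run, since no list had members.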
